A study of Mus musculus with 15 samples.

Results

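The comparison set IWR-1 directly against XAV939, a pair of small molecules that block the tankyrases, in primary mouse articular chondrocytes. It used 6 of the 15 libraries of the series, 3 from cells given IWR-1 and 3 from cells given XAV939, chosen by their treatment labels and paired by replicate number. All cells came from ICR mice, were used at passage 0 and were kept in DMEM with 10% fetal bovine serum. Both compounds were given at 10 μM for 108 h, so dose and time are matched for the 1 pair of compounds compared. The paper describes them as tankyrase inhibitors that differ in mode of action. How far each blocked the tankyrases at this dose was not tested here. The 3 DMSO libraries of the same experiment are shown for level only. The libraries are bulk poly(A) RNA from cultured cells, and the study describes the replicates as biological. No transgene or other genotype is named for these cells.

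Tankyrases are ADP-ribosyltransferases that add poly(ADP-ribose) chains to their partners, and the ubiquitin ligase RNF146 then marks many of these partners for the proteasome. Axin, a scaffold of the complex that degrades β-catenin, is the best known partner, so tankyrase inhibitors are used to dampen Wnt signalling. Articular chondrocytes lay down a matrix of type II collagen and aggrecan under the transcription factor SOX9, and in culture or under inflammatory cues they make cytokines, nitric oxide and matrix metalloproteinases instead. Inhibitors of 1 enzyme family can share some responses and differ in others, and the design asks which genes separate these compounds at the same dose and time.

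Counts assigned to genes numbered 27438611 to 36615194 per library with XAV939, 31502319 to 33961138 with IWR-1 and 31046712 to 36342916 with DMSO. Libraries with the same replicate number deviated together, with correlations of 0.492, 0.26 and 0.466 between the IWR-1 and XAV939 libraries after the group means were removed, against -0.429 to -0.044 for unequal numbers. Deviations from a mean of 3 libraries sum to 0. Positive values for equal numbers therefore bring negative values for unequal numbers, which are not separate evidence of pairing. The first principal component held 58.2% of the variance and ordered the libraries as DMSO (-53.1 to -41.1), XAV939 (-5.43 to 8.92) and IWR-1 (39.7 to 49.3). All 12 chondrocyte markers were detected in every library, with summed levels of 25988 to 35218 normalised read counts (CPM, scaled to the library total after TMM normalization) in DMSO, 36143 to 54631 in XAV939 and 85932 to 109360 in IWR-1. Fewer cells of a type and less RNA per cell cannot be told apart in such bulk libraries.

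IWR-1 and XAV939 cultures differed at 4258 of 13873 genes tested (30.7%, Benjamini-Hochberg adjusted p under 0.05 in edgeR's quasi-likelihood test), 1962 of them higher with IWR-1 (14.1% of genes) and 2296 lower (16.6%). All log2 fold changes below are IWR-1 minus XAV939, from a model in which the replicate number was a block, and single-library levels are CPM. The value after ± is a standard error derived from the fold change and its test statistic. Coordinates are those of GRCm38 (mm10). Differences past 2-fold were found at 885 genes (6.38%), 329 in the higher direction (2.37%) and 556 in the lower (4.01%). The median over all genes tested was 0.00 on the log2 scale. The stricter limits used by the study for its own comparisons, a fold above 3 and an adjusted p under 1e-05, left 23 genes higher and 67 lower with IWR-1 (0.649%). In 37.6% of the genes tested, the 3 IWR-1 libraries did not overlap the 3 XAV939 libraries. Counts of list members below stand beside these shares of 14.1% higher and 16.6% lower over all genes. Where a list below had 5 or fewer members called in a direction, such counts were often changed by 1 library and are given as a description. The count of 4258 was 2442 without the replicate block, 2291 without IWR-1 replicate 1 and 2575 without IWR-1 replicate 2, and the 1962 higher genes were 1276 without XAV939 replicate 1.

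**Figure D1:**
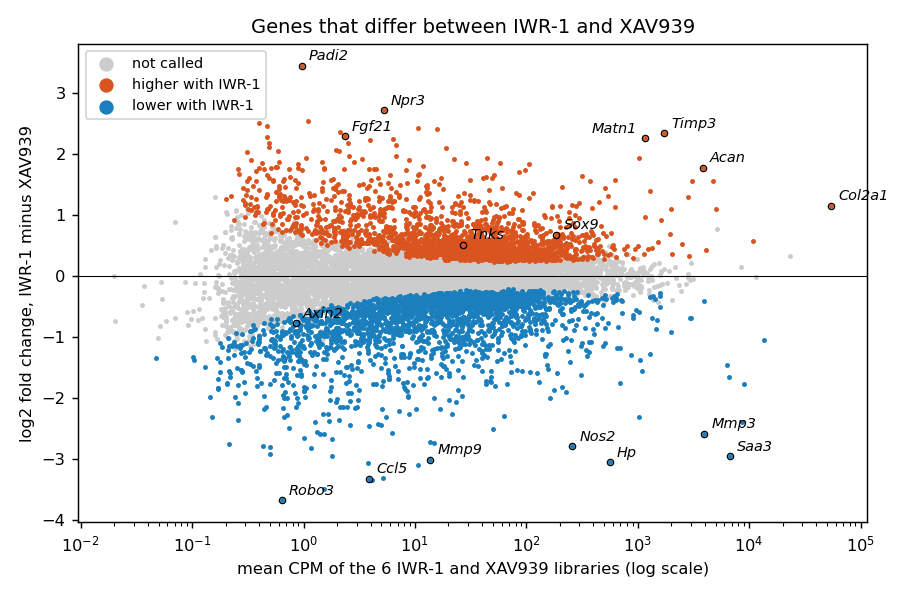
Each point is 1 of the 13873 genes tested, placed by its mean CPM over the 6 IWR-1 and XAV939 libraries (log scale) and by its log2 fold change, IWR-1 minus XAV939. Coloured points passed an adjusted p of 0.05. The 1962 orange genes were higher and the 2296 blue genes lower with IWR-1, and the outlined genes are described in the text.

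The DMSO level shows on which side of the control the difference lay. Of the 329 genes higher with IWR-1 past 2-fold, 224 (68.1%) had a DMSO mean below that of XAV939, so that XAV939 stood between DMSO and IWR-1. In 89 (27.1%) DMSO lay between the compounds, and in 16 (4.86%) beyond IWR-1. Of the 556 lower genes, 318 (57.2%) had XAV939 between DMSO and IWR-1, 230 (41.4%) had DMSO between the compounds, and 8 (1.44%) had DMSO beyond IWR-1. Among called genes with a mean of at least 1 CPM in some group, the inhibitors were compared with DMSO library by library. All 3 libraries of the inhibitors stood on opposite sides of every DMSO library in 152 of these genes, 54 of them higher and 98 lower with IWR-1. Called genes of any level numbered 4258.

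Genes most increased by IWR-1 relative to XAV939 included secreted cartilage proteins and a protease inhibitor. *Padi2*, a peptidylarginine deiminase that turns arginine into citrulline (chr4:140906336-140952586), had 35, 80 and 65 counts with IWR-1, 2, 4 and 4 with XAV939 and 0 in each DMSO library. Over the summed counts this is a ratio of 17.1 between the compounds, with a 95% counting interval of 9.10 to 36.3 (log2 fold change 3.44 ± 0.28, adjusted p = 1.92e-05). The log2 fold change is a fold of 10.9, smaller than this ratio because the prior count of 2 draws low counts together. Its ± value belongs to that smaller fold. The groups did not overlap, and the XAV939 counts were close to the limit of detection. *Npr3*, the clearance receptor for natriuretic peptides (chr15:11839896-11907837), measured 1.35, 1.24 and 1.42 CPM with XAV939, 8.63, 8.96 and 9.80 with IWR-1 and 2.47, 3.35 and 4.62 with DMSO. Every IWR-1 library was above and every XAV939 library below every DMSO library (6.56-fold, log2 fold change 2.71 ± 0.17, adjusted p = 1.61e-06). *Cytl1*, a cytokine-like protein secreted by chondrocytes (chr5:37735519-37739820), measured 5.74, 5.18 and 3.92 CPM with XAV939, 23.7, 29.02 and 26.7 with IWR-1 and 2.35, 3.29 and 1.92 with DMSO. All IWR-1 libraries exceeded all others (5.31-fold, log2 fold change 2.41 ± 0.15, adjusted p = 1.41e-06). *Matn1*, the cartilage matrix protein matrilin-1 (chr4:130944385-130955476), measured 281, 761 and 255 CPM with XAV939, 1741, 2526 and 1345 with IWR-1 and 159, 379 and 193 with DMSO. Replicate 2 was the highest library of each group, and the groups did not overlap (4.78-fold, log2 fold change 2.26 ± 0.17, adjusted p = 4.16e-06).

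*Timp3*, an inhibitor of metalloproteinases and of aggrecan-cleaving ADAMTS enzymes that is bound to the matrix (chr10:86300412-86349505), was among the largest increases too. It measured 594, 442 and 703 CPM with XAV939, 3102, 2456 and 3119 with IWR-1 and 724, 652 and 884 with DMSO, and each IWR-1 library was above all 6 others (5.05-fold, log2 fold change 2.34 ± 0.11, adjusted p = 3.13e-07). Its locus overlaps *Syn3*, so reads may be shared. *Fgf21*, a stress-induced hormone of the FGF family (chr7:45613890-45615490), measured 0.539, 1.13 and 0.648 CPM with XAV939, 3.52, 5.17 and 3.07 with IWR-1 and 0.549, 1.75 and 0.754 with DMSO. The DMSO and XAV939 libraries overlapped each other and lay below all IWR-1 libraries (4.88-fold, log2 fold change 2.29 ± 0.21, adjusted p = 1.66e-05). *Entpd3*, an ectonucleotidase that hydrolyses extracellular nucleotides, reached 18.8, 17.9 and 16.7 CPM with IWR-1 against 3.88, 3.45 and 2.59 with XAV939 (log2 fold change 2.41 ± 0.13, adjusted p = 8.38e-07). The other genes among the 12 with the largest increases were *Slc35f3* (2.53), *Luzp2* (2.35), *Ppp1r16b* (2.23), *C1ql3* (2.22, overlapping *Pter*) and *Nebl* (2.17).

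Genes most decreased by IWR-1 relative to XAV939 included inflammatory mediators, acute-phase proteins and inducible enzymes. *Robo3*, a receptor of the Roundabout family known from axon guidance (chr9:37416045-37433436), had 64, 21 and 38 counts with XAV939, 2, 2 and 0 with IWR-1 and 51, 58 and 50 with DMSO. The summed counts give a ratio of 32.3 between XAV939 and IWR-1 with a 95% counting interval of 12.3 to 120 (log2 fold change -3.69 ± 0.40, adjusted p = 4.35e-05). With the prior count the fold is 12.9, and the ± value belongs to that smaller fold. *Hp*, the haemoglobin-binding acute-phase protein haptoglobin (chr8:109575128-109579172), measured 981, 1175 and 839.9 CPM with XAV939, 103, 120.2 and 129.7 with IWR-1 and 766, 907 and 570.3 with DMSO. The IWR-1 libraries lay below all others (8.36-fold, log2 fold change -3.06 ± 0.15, adjusted p = 3.35e-07). *Saa3*, an acute-phase apolipoprotein (chr7:46711998-46719615), measured 16627, 9428 and 9643 CPM with XAV939, 1429.8, 1959 and 1194 with IWR-1 and 20383, 23934 and 12549 with DMSO. XAV939 overlapped DMSO and every IWR-1 library lay below both (7.80-fold, log2 fold change -2.96 ± 0.22, adjusted p = 3.72e-06), and the *Saa* genes are close copies whose counts are uncertain. *Ccl5*, a chemokine for T cells and monocytes (chr11:83525778-83530518), measured 8.11, 9.01 and 4.10 CPM with XAV939, 0.698, 0.610 and 0.580 with IWR-1 and 19.4, 14.7 and 9.18 with DMSO. Both compounds stood below DMSO, IWR-1 by far the more (10.1-fold, log2 fold change -3.33 ± 0.20, adjusted p = 1.29e-06).

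*Mmp9*, gelatinase B (chr2:164940326-164955850), had the smallest adjusted p of all genes and measured 23.3, 27.9 and 22.04 CPM with XAV939, 3.11, 3.34 and 2.44 with IWR-1 and 12.1, 16.2 and 11.8 with DMSO. All XAV939 libraries lay above and all IWR-1 libraries below the DMSO libraries (8.10-fold, log2 fold change -3.02 ± 0.11, adjusted p = 1.59e-07). *Aldh3a1*, an aldehyde dehydrogenase induced by the aryl hydrocarbon receptor (chr11:61208510-61218418), measured 5.36, 6.53 and 10.7 CPM with XAV939, 0.552, 0.642 and 0.812 with IWR-1 and 4.18, 4.05 and 4.68 with DMSO, again with DMSO between the compounds (10.2-fold, log2 fold change -3.35 ± 0.20, adjusted p = 1.16e-06). *Cck*, the peptide hormone cholecystokinin (chr9:121489824-121495694), measured 6.17, 10.7 and 11.5 CPM with XAV939, 0.669, 0.931 and 1.04 with IWR-1 and 3.84, 3.52 and 2.48 with DMSO, with the same order (9.96-fold, log2 fold change -3.32 ± 0.26, adjusted p = 5.39e-06). The rest of the 12 were *Slc36a2* (-3.49), *Draxin* (-3.11, overlapping *Mad2l2*), *Serpinb2* (-3.08), *Il19* (-2.95) and *Otor* (-2.82).

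**Figure D2:**
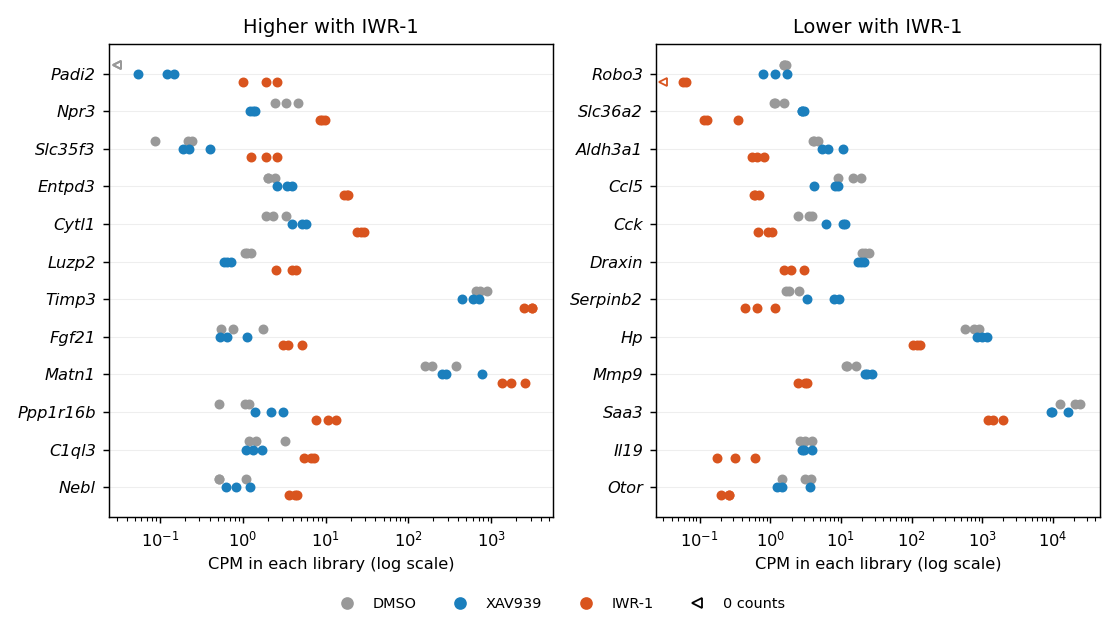
CPM in each of the 9 libraries (log scale) for the 12 genes with the largest increase (left) and the 12 with the largest decrease (right) with IWR-1 relative to XAV939. Each point is 1 library (grey DMSO, blue XAV939, orange IWR-1), and open triangles at the left edge are libraries with 0 counts. The 3 IWR-1 points of every gene lie clear of its 3 XAV939 points, while the DMSO points of most genes lie next to or beyond the XAV939 points and those of *Slc36a2*, *Aldh3a1*, *Cck*, *Serpinb2*, *Mmp9*, *Npr3* and *Luzp2* lie between the compounds.

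Cartilage genes were higher with IWR-1 than with XAV939. Of the 12 chondrocyte markers, 11 were called higher and 0 lower, with a median log2 fold change of 1.14, beside 14.1% of all genes called higher and a median of 0.00. The higher count was 9 without the replicate block. The compounds did not overlap in 9 of the 12, beside 37.6% of all genes. *Comp* measured 2708, 5099 and 2854 CPM with XAV939 and 4555, 4942 and 4294 with IWR-1, so replicate 2 went the other way. *Acan*, the aggrecan core protein (chr7:79053226-79115099), measured 1413, 2372 and 1519 CPM with XAV939, 5488, 6829.6 and 5404 with IWR-1 and 569.5, 889.7 and 835 with DMSO. DMSO was lowest, XAV939 intermediate and IWR-1 highest, with no overlap between any of these groups (3.41-fold, log2 fold change 1.77 ± 0.13, adjusted p = 4.50e-06). *Col2a1*, the collagen of the cartilage fibril (chr15:97975602-98004724), measured 32339, 42518 and 27767 CPM with XAV939, 72813, 85544 and 66454 with IWR-1 and 21554, 28917 and 20881 with DMSO. The lowest IWR-1 library was above the highest XAV939 library (2.21-fold, log2 fold change 1.15 ± 0.12, adjusted p = 3.72e-05), while the XAV939 and DMSO libraries overlapped. *Sox9*, the master transcription factor of chondrocytes (chr11:112782210-112787757), measured 129, 161 and 141 CPM with XAV939, 222, 247 and 215 with IWR-1 and 101, 121 and 118 with DMSO, and every IWR-1 library was higher (1.59-fold, log2 fold change 0.67 ± 0.09, adjusted p = 1.51e-04). Of its partners in activating matrix genes, *Sox6* measured 68.3, 71.8 and 68.8 CPM with XAV939, 112, 121 and 117 with IWR-1 and 53.3, 65.5 and 67.4 with DMSO (log2 fold change 0.74 ± 0.09, adjusted p = 8.91e-05). *Sox5*, with 47.9, 49.5 and 56.2 CPM under XAV939 and 42.5, 41.8 and 51.7 under IWR-1, was the 1 marker not called (log2 fold change -0.18 ± 0.10, adjusted p = 0.212, 95% interval -0.41 to 0.05).

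The cartilage matrix list had 21 of 33 tested members higher and 3 lower with IWR-1, with a median of 0.54. The minor fibrillar chains *Col11a1* (1.56) and *Col11a2* (1.55), *Col27a1* (1.56), the type IX chains *Col9a1* (1.30), *Col9a2* (0.96) and *Col9a3* (1.09), matrilin-3 (*Matn3*, 1.84), the link protein *Hapln1* (1.13) and *Ucma* (1.19) were all called higher. The small proteoglycan decorin (*Dcn*, -0.93), *Matn2* (-0.27) and lubricin (*Prg4*, -0.37) were called lower. *Prg4*, the lubricant of the joint surface, measured 498, 316 and 1186 CPM with XAV939, 337, 292 and 894 with IWR-1 and 552, 467 and 1124 with DMSO, so its groups overlapped, and its call was lost without the block (adjusted p = 0.664 by edgeR) and without DMSO replicate 1, XAV939 replicate 1 or 3 or any 1 of the IWR-1 libraries (0.0542 to 0.235). The list median was 0.83 without XAV939 replicate 2. Type VI collagen chains *Col6a1* (-0.14), *Col6a2* (-0.14) and *Col6a3* (0.14) did not pass the test.

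SOX9 targets, which the study listed from published binding and deletion of SOX9 in rib chondrocytes, had 70 of 90 tested members higher and 5 lower with IWR-1, with a median of 0.77. *Acan* is in the chondrocyte marker, cartilage matrix and SOX9 target lists and in the cartilage signature below. These lists share further members, so their counts are not separate results. *Atf4*, *Got1*, *Aldh1l2* and *Slc1a5* of the SOX9 targets are also named with the amino acid response below. *Loxl4* and *Papss2* were among the most significant. *Papss2*, which makes the sulfate donor for proteoglycans (chr19:32595669-32667187), measured 262, 303 and 266 CPM with XAV939, 761, 787 and 698 with IWR-1 and 147, 194 and 195 with DMSO, with every IWR-1 library above every other (2.71-fold, log2 fold change 1.44 ± 0.11, adjusted p = 4.24e-06). *Loxl4*, a lysyl oxidase that cross-links collagen (chr19:42592279-42612806), measured 349, 537 and 401 CPM with XAV939, 1512, 1591 and 1764 with IWR-1 and 208, 285 and 321 with DMSO and followed the same order (3.83-fold, log2 fold change 1.94 ± 0.13, adjusted p = 2.57e-06). *Spats2l* was also higher (log2 fold change 1.61 ± 0.09, adjusted p = 8.38e-07). *Lcn2*, the siderophore-binding protein lipocalin-2, went the other way, from 14740.0, 15622 and 11551 CPM with XAV939 to 3788, 4571 and 3783 with IWR-1 (log2 fold change -1.78 ± 0.13, adjusted p = 4.24e-06). The wider cartilage signature, which the study drew from public arrays of nasal and rib chondrocytes, had 116 of 225 members higher and 42 lower (median 0.33), and its lower count was 23 without the replicate block and 23 without IWR-1 replicate 1. Glycosaminoglycan synthesis had 14 of 38 higher and 5 lower (median 0.13), among them the sulfate transporter *Slc26a2* with 15.9, 30.9 and 29.2 CPM against 70.4, 85.4 and 115 (log2 fold change 1.84 ± 0.20, adjusted p = 5.20e-05), the hexosamine enzyme *Gfpt2* (0.80) and the nucleotide-sugar carrier *Slc35d1* (0.86). Its higher count was 9 without the replicate block.

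Hypertrophy and mineralization genes were divided, with 10 of 23 higher and 3 lower (median 0.25). *Col10a1*, the collagen of hypertrophic chondrocytes (chr10:34389981-34397085), measured 42.6, 34.04 and 45.5 CPM with XAV939, 135, 118 and 143 with IWR-1 and 16.4, 14.2 and 16.4 with DMSO, and the 3 groups did not overlap (3.25-fold, log2 fold change 1.70 ± 0.08, adjusted p = 3.35e-07). It overlaps *Nt5dc1*. The Hedgehog ligand *Ihh* (1.75), the transcription factor *Gli1* (1.74) and the inhibitor *Hhip* (1.77) were called higher. The Notch and Hedgehog list as a whole had 5 of 21 higher and 4 lower (median -0.16), beside 14.1% and 16.6% of all genes. *Ihh* stayed at low levels, 0.243, 0.450 and 0.247 CPM with XAV939 and 1.10, 1.48 and 0.957 with IWR-1. *Spp1*, the mineral-binding protein osteopontin (chr5:104435111-104441053), was lower with IWR-1, 9959, 10238 and 9801 CPM with XAV939, 3394, 2965 and 3091 with IWR-1 and 10384, 8877 and 6191 with DMSO (3.18-fold, log2 fold change -1.67 ± 0.14, adjusted p = 9.91e-06). The phosphate transporter *Slc20a1* was higher (log2 fold change 0.64 ± 0.09, adjusted p = 2.06e-04). *Runx2* (-0.09) and *Alpl* (0.28) did not pass the test.

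**Figure D3:**
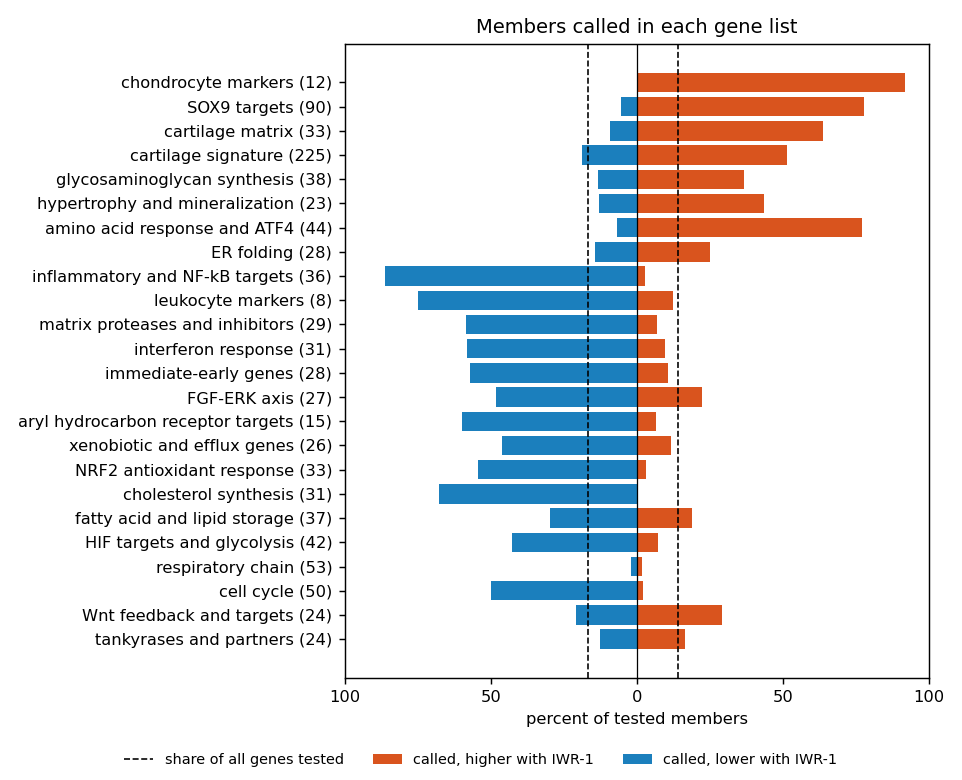
Percent of the tested members of each gene list that were called higher (orange, to the right) or lower (blue, to the left) with IWR-1 than with XAV939, with the number tested in parentheses. Dashed lines mark the shares over all genes tested, 14.1% higher and 16.6% lower. Cartilage and amino acid response lists extend to the right, inflammatory, protease, cholesterol and aryl hydrocarbon receptor lists to the left, and the respiratory chain has 1 call each way among 53.

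Inflammatory and NF-κB target genes were lower with IWR-1 than with XAV939. Of 36 tested members, 31 were called lower, 23 of them past 2-fold, and 1 higher, with a median of -1.52. *Nos2*, the inducible nitric oxide synthase (chr11:78920787-78960226), measured 423, 407 and 519 CPM with XAV939, 59.8, 54.1 and 81.9 with IWR-1 and 1608, 1213 and 1432 with DMSO. XAV939 stood well below DMSO and IWR-1 well below XAV939, with no overlap (6.94-fold, log2 fold change -2.79 ± 0.13, adjusted p = 3.13e-07). *Cxcl1*, a neutrophil chemokine (chr5:90891245-90893121), measured 1086, 910.4 and 1193 CPM with XAV939, 291, 273 and 375 with IWR-1 and 1487, 1506 and 1607 with DMSO, and *Cxcl2*, its close relative (chr5:90903899-90905938), measured 27.5, 23.4 and 33.1 CPM with XAV939, 9.65, 7.61 and 11.9 with IWR-1 and 80.99, 80.2 and 91.7 with DMSO. Both were highest with DMSO and lowest with IWR-1, without overlap (-1.77 ± 0.10 and -1.53 ± 0.10, adjusted p = 1.22e-06 and 2.43e-06). *Il6*, the cytokine interleukin-6, measured 27.3, 16.8 and 62.9 CPM with XAV939, 4.74, 5.26 and 11.02 with IWR-1 and 107, 107 and 152 with DMSO, in the same order (4.81-fold, log2 fold change -2.27 ± 0.22, adjusted p = 1.84e-05).

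*Ptgs2*, the inducible cyclooxygenase, measured 57.6, 51.2 and 116 CPM with XAV939, 22.7, 17.7 and 26.6 with IWR-1 and 211, 162 and 339.8 with DMSO (log2 fold change -1.66 ± 0.13, adjusted p = 5.52e-06), and *Ptges*, the prostaglandin E synthase downstream of it, measured 196, 219 and 260.2 CPM with XAV939, 63.5, 73.6 and 111 with IWR-1 and 344, 302 and 330.1 with DMSO (log2 fold change -1.47 ± 0.14, adjusted p = 1.48e-05). Each was lower in every IWR-1 library than in any XAV939 library. Cytokines and chemokines called lower also included *Lif* (-2.0), *Csf3* (-2.19), *Ccl20* (-1.97), *Ccl2* (-1.90), *Tnf* (-1.80) and *Il11* (-1.52). Of inhibitors of the pathway, *Nfkbia* (-0.82) and *Tnip1* (-0.55) were called, and *Tnfaip3* (log2 fold change -0.21 ± 0.12, adjusted p = 0.215) and *Nfkbie* (-0.16) did not pass the test. *Csf1*, the macrophage growth factor, was the 1 member higher with IWR-1, with 172, 179 and 204 CPM against 305, 339 and 367 (log2 fold change 0.87 ± 0.08, adjusted p = 2.22e-05).

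Markers of leukocytes, which also make such cytokines, are given beside these values. The 18 leukocyte markers summed to 41.6 to 48.7 CPM with XAV939, 27.1 to 30.2 with IWR-1 and 38.3 to 50.3 with DMSO. Only 8 were abundant enough to test, of which 6 were called lower and 1 higher. *Cd14*, a co-receptor for bacterial lipopolysaccharide, held much of the sum, with 19.9, 18.5 and 23.3 CPM against 7.73, 8.18 and 11.02 (log2 fold change -1.20 ± 0.12, adjusted p = 3.41e-05). *Cd14* is also in the study's cartilage signature. *Laptm5*, a lysosomal membrane protein of blood cells, went the other way, with 2.86, 3.30 and 2.59 CPM against 9.62, 8.89 and 6.81 (log2 fold change 1.51 ± 0.14, adjusted p = 1.69e-05). The myeloid markers *Cd68* (6.39, 7.58 and 8.83 CPM against 4.01, 3.98 and 4.70, log2 fold change -0.83 ± 0.12, adjusted p = 3.65e-04) and *S100a8* (1.40, 1.84 and 2.16 against 0.0872, 0.160 and 0.464, log2 fold change -2.66 ± 0.29, adjusted p = 4.86e-05) were called lower, as were *Lyz2* (4.55, 5.29 and 4.75 CPM against 2.27, 3.27 and 3.48, log2 fold change -0.70 ± 0.15, adjusted p = 0.00379) and *Cd74* (5.09, 9.16 and 4.91 CPM against 2.62, 4.75 and 2.29, log2 fold change -0.98 ± 0.14, adjusted p = 3.96e-04). Others were at or near 0. *Ptprc* had at most 5 counts, *Itgam* at most 9 and *Tyrobp* at most 3, and *S100a9* and *H2-Aa* had none. The part of leukocytes in the inflammatory values was not tested.

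The promoters of the chemokine genes are shown because several of the genes that fell together share a match to the NF-κB motif in the 250 bases before to 50 after the RefSeq start (GRCm38.p6). Among the 26 list members with a promoter entry, 11 held a match on either strand, 8 of the 21 called lower and the 1 called higher, beside 6.47% of the 10970 tested genes with an entry. The list was made of known inflammatory and NF-κB targets, so its share of matches does not test the motif. Capitals mark the match. In *Cxcl1* (chr5:90890995-90891244, plus strand) and *Cxcl2* (chr5:90903649-90903898, plus strand) 2 matches overlap, shifted by 1 base, and the 250 bases before the start are given. For *Ccl20* (chr1:83116670-83116711, plus strand), *Il6* (chr5:30013054-30013095, plus strand) and *Nfkbia* (chr12:55492651-55492692, minus strand) the match is given with 16 bases on each side. All are written 5′ to 3′ on the strand of the gene, and a match is a description of the letters only.
Cxcl1: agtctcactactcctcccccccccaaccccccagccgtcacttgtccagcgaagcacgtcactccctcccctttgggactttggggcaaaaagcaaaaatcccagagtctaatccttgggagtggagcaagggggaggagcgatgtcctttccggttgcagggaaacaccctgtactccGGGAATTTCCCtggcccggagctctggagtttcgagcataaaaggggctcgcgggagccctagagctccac
Cxcl2: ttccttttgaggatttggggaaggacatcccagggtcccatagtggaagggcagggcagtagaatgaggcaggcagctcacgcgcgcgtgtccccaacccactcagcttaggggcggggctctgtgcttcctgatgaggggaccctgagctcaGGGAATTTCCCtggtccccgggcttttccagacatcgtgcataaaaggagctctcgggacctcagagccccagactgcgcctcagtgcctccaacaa
Ccl20: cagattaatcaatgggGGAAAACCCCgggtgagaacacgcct
Il6: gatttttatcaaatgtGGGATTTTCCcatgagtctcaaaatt
Nfkbia: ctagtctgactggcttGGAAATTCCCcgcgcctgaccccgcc

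The matches begin 71 bases before the start in *Cxcl1*, 97 in *Cxcl2*, 80 in *Ccl20*, 44 in *Il6* and 29 in *Nfkbia*. *Csf1*, which moved the opposite way, also holds a match, and *Saa3* holds none in this window.

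Interferon response genes were lower with IWR-1 at 18 of 31 members and higher at 3 (median -0.46), and the lower count was 11 without the replicate block, 8 without IWR-1 replicate 1 and 10 without IWR-1 replicate 2. *Psmb8*, a subunit of the immunoproteasome (chr17:34198195-34201454), measured 4.23, 4.54 and 3.43 CPM with XAV939, 1.45, 1.35 and 1.28 with IWR-1 and 3.14, 3.90 and 3.17 with DMSO (2.89-fold, log2 fold change -1.53 ± 0.16, adjusted p = 3.32e-05), and *Gbp2*, an interferon-induced GTPase, had 28.7, 20.8 and 23.5 CPM against 13.8, 11.7 and 13.2 (log2 fold change -0.90 ± 0.12, adjusted p = 1.69e-04). The peptide transporter *Tap1* was lower too (-0.62), while *Ifi44* was higher (log2 fold change 1.37 ± 0.20, adjusted p = 3.60e-04).

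Matrix proteases were lower with IWR-1 and their inhibitor *Timp3* higher. Of 29 tested members of the list, 17 were called lower, 11 of them past 2-fold, and 2 higher, with a median of -0.64. *Mmp3*, stromelysin-1 (chr9:7445822-7455975), measured 6088, 5719 and 8484 CPM with XAV939, 965, 999 and 1406 with IWR-1 and 9609.8, 9694 and 10225 with DMSO, highest with DMSO and lowest with IWR-1 without overlap (6.02-fold, log2 fold change -2.59 ± 0.13, adjusted p = 3.35e-07). *Mmp13*, the main collagenase of cartilage (chr9:7272514-7283333), measured 11387, 7330.3 and 9447 CPM with XAV939, 3532, 3447 and 3112 with IWR-1 and 13838, 13173 and 12185 with DMSO and followed the same order (2.77-fold, log2 fold change -1.47 ± 0.14, adjusted p = 1.50e-05). *Mmp2*, gelatinase A, measured 482, 500.2 and 496 CPM with XAV939, 236, 214 and 251 with IWR-1 and 474, 440.2 and 462 with DMSO, so that DMSO lay between the compounds (log2 fold change -1.08 ± 0.09, adjusted p = 7.30e-06). The aggrecanases *Adamts5* (-1.48) and *Adamts4* (-1.31) and the related *Adamts7* (-1.65) were also lower. *Mmp16* (0.54) was the other gene called higher, and *Timp1* (-0.64) was lower while *Timp2* (-0.18) did not pass the test.

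Genes of the amino acid response, which the transcription factor ATF4 switches on when uncharged tRNA or other stresses slow translation, were higher with IWR-1 than with XAV939. Of 44 members tested, 34 were called higher and 3 lower, with a median of 0.52. *Chac1*, a glutathione-degrading enzyme (chr2:119351242-119354326), measured 46.2, 53.9 and 37.3 CPM with XAV939, 93.9, 101 and 83.9 with IWR-1 and 33.4, 36.9 and 29.8 with DMSO, and *Pycr1*, a proline synthesis enzyme (chr11:120638998-120643748), measured 30.5, 33.3 and 22.7 CPM with XAV939, 57.3, 64.6 and 54.3 with IWR-1 and 23.7, 24.5 and 19.8 with DMSO. Every IWR-1 library was above every XAV939 and DMSO library, and XAV939 was above DMSO without overlap for *Chac1* only (1.03 ± 0.09 and 1.04 ± 0.09, adjusted p = 7.35e-06 and 1.40e-05). *Got1*, an aspartate aminotransferase (chr19:43499752-43524605), measured 65.8, 72.5 and 59.2 CPM with XAV939, 123, 128 and 111 with IWR-1 and 47.2, 53.6 and 45.6 with DMSO and its 3 groups did not overlap (1.83-fold, log2 fold change 0.87 ± 0.08, adjusted p = 1.43e-05). Most changes were under 2-fold, and 4 of the 34 exceeded it.

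Called genes covered the transporters *Slc7a5* (0.95) and *Slc1a5* (1.0), serine synthesis with *Phgdh* (0.40), *Psat1* (0.58) and *Psph* (0.72), the synthetases *Wars* (0.77), *Gars* (0.68) and *Nars* (0.63), the folate enzymes *Aldh1l2* (1.16) and *Mthfd2* (0.56), and *Asns* (0.55). The factors themselves were also higher, *Atf4* by 0.47 and *Ddit3* by 0.80. *Cebpb* (-1.32), *Ddit4* (-0.81) and the cystine transporter *Slc7a11* (-0.40) were called lower. Chaperones of the endoplasmic reticulum were called higher at 7 of 28 and lower at 4, beside 14.1% and 16.6% of all genes. Their median of 0.10 was -0.03 without XAV939 replicate 2. Their higher count was 4 without the replicate block, 3 without XAV939 replicate 1 and 4 without IWR-1 replicate 1.

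The amino acid response element TGATGNAA is shown in these promoters because 11 of the 25 list members called higher that have a promoter entry held it on either strand. It stood in 13 of all 35 members with an entry and in 2.75% of the 10970 tested genes. The list was made of known response genes, so its share does not test the element. Capitals mark the match, in the 250 bases before the start of *Chac1* (chr2:119350992-119351241, plus strand) and *Fgf21* (chr7:45615491-45615740, minus strand) and with 16 bases on each side in *Pycr1* (chr11:120643828-120643867, minus strand) and *Got1* (chr19:43524684-43524723, minus strand), from RefSeq GRCm38.p6 on the strand of the gene.
Chac1: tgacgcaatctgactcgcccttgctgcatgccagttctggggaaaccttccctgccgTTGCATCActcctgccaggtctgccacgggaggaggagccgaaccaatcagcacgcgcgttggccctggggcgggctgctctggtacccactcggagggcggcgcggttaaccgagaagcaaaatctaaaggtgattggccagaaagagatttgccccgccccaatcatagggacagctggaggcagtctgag
Fgf21: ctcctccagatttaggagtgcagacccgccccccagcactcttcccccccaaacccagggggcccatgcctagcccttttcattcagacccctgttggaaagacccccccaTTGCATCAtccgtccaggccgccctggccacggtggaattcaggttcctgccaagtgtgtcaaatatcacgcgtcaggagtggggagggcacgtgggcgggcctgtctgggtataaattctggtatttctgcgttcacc
Pycr1: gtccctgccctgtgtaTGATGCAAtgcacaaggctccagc
Got1: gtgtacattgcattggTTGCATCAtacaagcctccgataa

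The matches begin 193 bases before the start in *Chac1*, 139 in *Fgf21*, 103 in *Pycr1* and 102 in *Got1*. *Slc7a11*, one of the 3 members called lower, holds the element too.

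Cholesterol synthesis genes were lower with IWR-1 than with XAV939. Of 31 members, 21 were called lower, 6 past 2-fold, and 0 higher, with a median of -0.43. *Hmgcs1*, an early enzyme of the mevalonate pathway (chr13:119690351-119708260), measured 168, 126 and 159 CPM with XAV939, 83.2, 89.2 and 86.5 with IWR-1 and 148, 138 and 141 with DMSO. XAV939 overlapped DMSO and IWR-1 lay below both (1.74-fold, log2 fold change -0.80 ± 0.10, adjusted p = 1.47e-04). The later enzymes *Mvd* and *Nsdhl* behaved alike, *Mvd* with 35.2, 40.9 and 26.3 CPM against 14.9, 17.7 and 14.4 (log2 fold change -1.10 ± 0.10, adjusted p = 1.44e-05) and *Nsdhl* with 67.1, 46.99 and 52.00 against 26.8, 27.2 and 23.9 (log2 fold change -1.08 ± 0.11, adjusted p = 3.11e-05). *Tm7sf2*, a sterol reductase that overlaps *Vps51*, and *Acat2*, an acetyl-CoA acetyltransferase, fell by 1.53 and 1.14 on the log2 scale (adjusted p = 1.12e-05 and 1.66e-05). The sterol response element TCACNCCAC was found in 1 of 22 promoters of the list, that of *Hmgcs1*, beside 1.37% of genes. Fatty acid and lipid storage genes had 11 of 37 lower and 7 higher (median -0.09), beside 16.6% and 14.1% of all genes. Among the lower were the lipase inhibitor *Angptl4* (-1.05), the triglyceride enzyme *Dgat1* (-0.89), *Ucp2* (-1.15) and *Cpt1c* (-0.96). The lower count was 6 without the replicate block, 6 without IWR-1 replicate 1 and 7 without IWR-1 replicate 2.

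Targets of the aryl hydrocarbon receptor, a sensor of planar aromatic compounds, were also lower with IWR-1. Of 15 tested members, 9 were called lower, 7 past 2-fold, and 1 higher (median -0.99). *Cyp1b1*, a cytochrome P450 and standard readout of the receptor (chr17:79706940-79715061), measured 290.0, 223 and 323 CPM with XAV939, 67.1, 70.00 and 91.04 with IWR-1 and 264, 222 and 221 with DMSO. XAV939 overlapped DMSO and IWR-1 lay far below both (3.65-fold, log2 fold change -1.87 ± 0.13, adjusted p = 2.54e-06). *Ahrr*, the receptor's repressor, had 10.6, 12.9 and 13.5 CPM with XAV939 and 2.96, 2.92 and 4.58 with IWR-1, both above the DMSO level of 1.52, 1.31 and 2.26 (log2 fold change -1.82 ± 0.15, adjusted p = 6.44e-06). *Serpinb2*, the plasminogen activator inhibitor PAI-2, and *Aldh3a1*, described above, are on this list too. *Cyp1a1* had between 0 and 5 counts in every library and was not tested. *Tiparp* (0.05, 95% interval -0.22 to 0.32) and *Nqo1* (-0.24, 95% interval -0.50 to 0.01), other targets, did not pass the test. The *Ugt1a* members share exons and cannot be separated by counting. The receptor's core motif TNGCGTG stood in 2 of 11 promoters of the list, those of *Ahrr* and *Ptgs2*, beside 9.42% of genes, and *Cyp1b1* had no match in this window.

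Xenobiotic and efflux genes had 12 of 26 lower and 3 higher (median -0.31). Glutathione transferases have close copies, so their counts are uncertain. *Gstt1*, a glutathione transferase, measured 9.43, 17.6 and 8.70 CPM with XAV939, 1.69, 2.99 and 2.58 with IWR-1 and 8.69, 16.6 and 7.10 with DMSO, with replicate 2 highest in each group and no overlap between the compounds (4.68-fold, log2 fold change -2.23 ± 0.18, adjusted p = 6.32e-06). *Cyp7b1*, an oxysterol hydroxylase, measured 124, 88.98 and 93.7 CPM with XAV939, 45.8, 41.8 and 35.3 with IWR-1 and 63.6, 68.4 and 51.6 with DMSO, with DMSO between the compounds (log2 fold change -1.32 ± 0.11, adjusted p = 7.59e-06). *Mgst1*, a membrane-bound glutathione transferase, fell by 1.70 on the log2 scale (adjusted p = 8.61e-06), and *Gstt3* by 1.04 (adjusted p = 1.27e-04). In the NRF2 antioxidant list 18 of 33 were lower and 1 higher (median -0.29), including the ferritin chain *Fth1* (log2 fold change -1.05 ± 0.13, adjusted p = 1.32e-04) and the superoxide dismutase *Sod2* (log2 fold change -1.16 ± 0.09, adjusted p = 5.52e-06), and *Gstm1* (-1.02) and *Gstm2* (-1.08). The lower count was 8 without the replicate block, 10 without XAV939 replicate 3, 10 without IWR-1 replicate 1 and 11 without IWR-1 replicate 2.

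**Figure D4:**
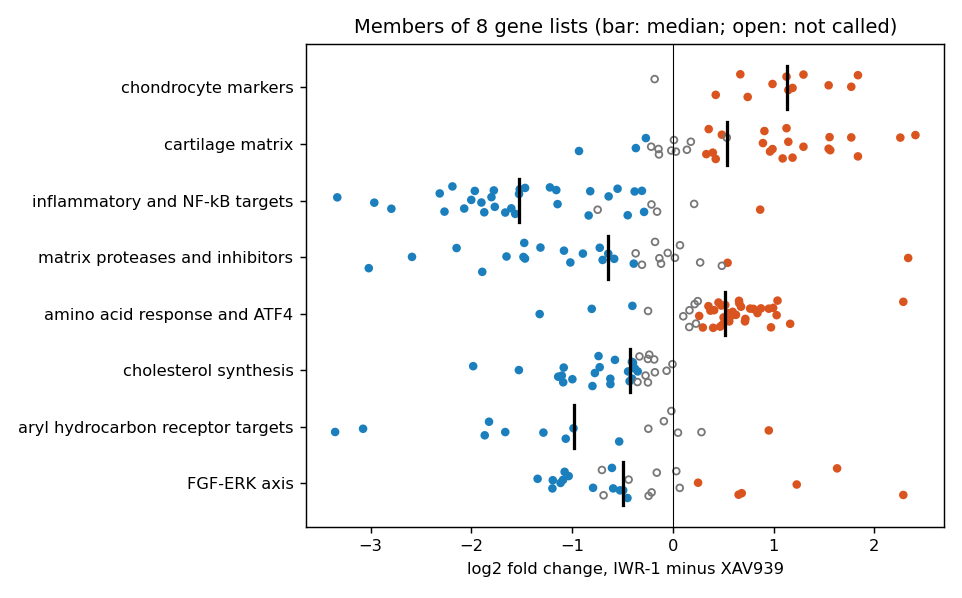
Log2 fold changes, IWR-1 minus XAV939, of the tested members of 8 gene lists. Filled points were called (orange higher, blue lower with IWR-1), open points were not, and black bars are the medians, from -1.52 in the inflammatory list to 1.14 in the chondrocyte markers. In the FGF-ERK list, *Fgf21* and *Fgfr3* are the points farthest to the right.

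In the FGF-ERK axis, of 27 tested members 6 were higher and 13 lower (median -0.49), where the higher count was 3 without the replicate block and 3 without IWR-1 replicate 1 and the lower count 8 without the replicate block. *Fgfr3*, the receptor that marks chondrocytes (chr5:33721724-33737068), measured 134, 215 and 124 CPM with XAV939, 481, 503 and 439 with IWR-1 and 28.4, 42.1 and 35.9 with DMSO and its 3 groups did not overlap (3.10-fold, log2 fold change 1.63 ± 0.14, adjusted p = 7.35e-06). *Fgfr4* (1.23) and *Fgfr2* (0.25) were also higher, while *Fgfr1* (-0.21) did not pass the test. The ligand *Fgf21*, described above, had the largest increase of the list (2.29), and the ligands *Fgf9* (-1.34), *Fgf7* (-1.09) and *Fgf1* (-0.79) were lower, as were readouts of ERK activity, including *Etv4* (-1.20), *Spry4* (-1.07), *Dusp4* (-1.03) and *Dusp6* (-0.59). *Spred3*, a feedback inhibitor that overlaps *Ggn*, was lower (log2 fold change -1.19 ± 0.10, adjusted p = 9.29e-06). *Etv1*, an ETS factor downstream of ERK, had 6.09, 6.79 and 11.1 CPM with XAV939 and 2.65, 3.27 and 5.04 with IWR-1 (log2 fold change -1.11 ± 0.13, adjusted p = 6.51e-05).

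Immediate-early genes had 16 of 28 lower and 3 higher (median -0.43), and the lower count was 10 without IWR-1 replicate 1. *Fosl1*, an AP-1 subunit, measured 59.1, 49.7 and 71.4 CPM with XAV939, 16.7, 18.6 and 25.5 with IWR-1 and 143, 121 and 124 with DMSO, highest with DMSO and lowest with IWR-1 without overlap (2.96-fold, log2 fold change -1.57 ± 0.13, adjusted p = 9.14e-06). It overlaps *Ccdc85b*. *Egr1*, an early growth response factor, had 47.1, 49.3 and 67.7 CPM with XAV939 and 19.6, 23.9 and 31.6 with IWR-1 (log2 fold change -1.13 ± 0.14, adjusted p = 9.51e-05). *Atf3* and *Myc* were higher, *Atf3* with 23.1, 30.9 and 28.3 CPM against 58.4, 61.6 and 51.5 (log2 fold change 1.07 ± 0.14, adjusted p = 2.17e-04) and *Myc* with 45.3, 45.6 and 33.1 against 68.6, 69.1 and 61.5 (log2 fold change 0.70 ± 0.09, adjusted p = 1.42e-04).

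The tankyrases, the enzymes that both compounds block, did not pass the test, and Wnt readouts were called in both directions. *Tnks*, tankyrase 1 (chr8:34829179-34965690), measured 13.6, 26.4 and 26.9 CPM with XAV939, 22.6, 29.9 and 44.01 with IWR-1 and 26.2, 20.02 and 64.1 with DMSO, with overlapping groups (log2 fold change 0.51 ± 0.23, adjusted p = 0.116, 95% interval 0.01 to 1.01). It passed the test without XAV939 replicate 2 (log2 fold change 0.88) and without DMSO replicate 2 (0.54), with no filter on low counts (0.52), and in the fit of the 6 libraries alone (0.53, adjusted p = 0.00571). *Tnks2*, tankyrase 2, measured 94.7, 88.9 and 108 CPM with XAV939, 108, 104 and 109 with IWR-1 and 121, 116 and 151 with DMSO (log2 fold change 0.15 ± 0.09, adjusted p = 0.238, 95% interval -0.05 to 0.34). *Rnf146*, the ligase, was 41.5, 36.2 and 39.7 CPM with XAV939 and 49.6, 45.7 and 46.9 with IWR-1 (log2 fold change 0.28 ± 0.09, adjusted p = 0.031), a call lost without the block (adjusted p = 0.0622 by edgeR) and without any 1 of the 6 inhibitor libraries. It overlaps *Echdc1*. Of the 24 tankyrases and partners, 4 were higher and 3 lower (median 0.08), a share of 29.2% beside 30.7% of all genes. *Amot*, a junction protein that RNF146 marks, was higher (log2 fold change 0.56 ± 0.11, adjusted p = 0.00253) and *Parp3*, another ADP-ribosyltransferase, lower (log2 fold change -0.33 ± 0.09, adjusted p = 0.0127), both not called without the block. The higher count was 1 without the replicate block, 7 without DMSO replicate 2, 2 without XAV939 replicate 1, 2 without XAV939 replicate 3, 2 without IWR-1 replicate 1 and 2 without IWR-1 replicate 2, and the lower count was 0 without the replicate block, 1 without XAV939 replicate 1, 1 without XAV939 replicate 3, 0 without IWR-1 replicate 1 and 0 without IWR-1 replicate 2.

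*Axin2*, the Wnt feedback gene used most often as a readout, measured 1.21, 0.826 and 1.23 CPM with XAV939, 0.610, 0.417 and 0.812 with IWR-1 and 3.32, 2.59 and 3.11 with DMSO, with both compounds below DMSO and IWR-1 below XAV939 (1.71-fold, log2 fold change -0.78 ± 0.21, adjusted p = 0.0175). That call was lost without the block (adjusted p = 0.0652), with DESeq2 (0.0517 with the block) and without XAV939 replicate 1 or 3 or IWR-1 replicate 1 or 2 (0.0591 to 0.102). *Lef1*, another target, measured 8.52, 10.5 and 11.5 CPM with XAV939, 9.65, 9.95 and 10.1 with IWR-1 and 6.01, 7.83 and 8.36 with DMSO and did not differ beyond its spread (log2 fold change -0.03 ± 0.12, adjusted p = 0.88, 95% interval -0.29 to 0.23). In the Wnt list 7 of 24 were higher and 5 lower, beside 14.1% and 16.6% of all genes. The largest were *Nrcam* (log2 fold change 1.47 ± 0.11, adjusted p = 3.51e-06) and *Dact1* (log2 fold change 1.25 ± 0.11, adjusted p = 1.45e-05, overlapping *2700049A03Rik*) among the higher and *Apcdd1* (-1.17) and *Cd44* (-0.86) among the lower. The median of 0.11 turned to -0.03 without XAV939 replicate 2 and to -0.01 with DESeq2 and the block. The higher count was 4 without the replicate block, and the lower count was 3 without the replicate block, 3 without XAV939 replicate 1, 3 without XAV939 replicate 3, 3 without IWR-1 replicate 1 and 2 without IWR-1 replicate 2.

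HIF targets and glycolysis had 18 of 42 lower and 3 higher (median -0.20), and the lower count was 11 without IWR-1 replicate 1. *Epas1*, the hypoxia factor HIF-2α (chr17:86753864-86833410), measured 236, 257 and 200.1 CPM with XAV939, 76.2, 80.8 and 81.2 with IWR-1 and 186, 190.4 and 179 with DMSO, with DMSO between the compounds (2.89-fold, log2 fold change -1.53 ± 0.09, adjusted p = 1.31e-06), while *Hif1a* did not pass the test (0.19, 95% interval -0.01 to 0.40). The hypoxia markers *Car9* (-0.98) and *Egln3* (-0.84) and the glycolytic *Aldoc* (-1.40), *Ldha* (-0.70) and *Pkm* (-0.69) were lower. In the respiratory chain list 1 of 53 members was called in each direction, 3.8% of the list, with a median of -0.06. Cell cycle genes had 25 of 50 lower and 1 higher (median -0.27), 0 of them past 2-fold, with the G1/S cyclin *Ccne1* at -0.75 ± 0.10 (adjusted p = 1.81e-04) and the replication licensing factor *Cdt1* at -0.81 ± 0.12 (adjusted p = 4.41e-04). *E2f2* (-0.86) and *Cdc6* (-0.74) were lower too, and the lower count was 15 without the replicate block, 15 without XAV939 replicate 1, 14 without IWR-1 replicate 1 and 13 without IWR-1 replicate 2. In the p53 and senescence list 12 of 30 were lower and 4 higher (median -0.23), with *Phlda3* at -0.90 and *Btg2* at -0.64 and, in the other direction, *Gadd45g* at 0.62 and the growth inhibitor *Cdkn1c* at 0.56. The lower count of that list was 6 without the replicate block, 6 without XAV939 replicate 1 and 5 without IWR-1 replicate 1.

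Growth factor axes of cartilage moved in both directions. In the IGF axis 6 of 16 members were higher and 4 lower, led by opposite changes of the binding proteins. *Igfbp5*, which binds IGFs in the matrix, measured 132, 191 and 255 CPM with XAV939, 408, 575 and 674 with IWR-1 and 197, 243 and 422 with DMSO, with IWR-1 above XAV939 in every pair (2.92-fold, log2 fold change 1.54 ± 0.11, adjusted p = 3.22e-06). *Igfbp4*, which sequesters IGFs, measured 1439.5, 1305 and 947 CPM with XAV939, 520.0, 516 and 442 with IWR-1 and 1065, 1106 and 697 with DMSO, with IWR-1 below every other library (2.46-fold, log2 fold change -1.30 ± 0.11, adjusted p = 7.68e-06). *Pappa*, the protease that cleaves IGFBP4, was higher (log2 fold change 1.15 ± 0.12, adjusted p = 3.11e-05) and *Igfbp3* lower (log2 fold change -1.13 ± 0.12, adjusted p = 4.18e-05). The IGF median of 0.08 turned to -0.07 in the 6 libraries alone, and its higher count was 3 without the replicate block, 3 without XAV939 replicate 3 and 3 without IWR-1 replicate 2. The BMP and TGF-β axis had 12 of 44 higher and 11 lower. The BMP antagonist *Chrdl1* was higher (log2 fold change 1.56 ± 0.12, adjusted p = 4.16e-06), as was the TGF-β-induced matrix gene *Tgfbi* (log2 fold change 1.05 ± 0.11, adjusted p = 4.46e-05), and the co-receptor *Tgfbr3* was lower (log2 fold change -0.84 ± 0.09, adjusted p = 3.97e-05). The lower count was 7 without the replicate block and 7 without IWR-1 replicate 2.

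Gene lists that the study drew from public data on osteoarthritic cartilage divided as well. Of 136 tested genes listed as raised in osteoarthritis, 42 were lower and 23 higher with IWR-1 (median -0.12). Of 55 listed as lowered, 24 were higher and 10 lower (median 0.22). Over all genes, 16.6% were lower and 14.1% higher. Past 2-fold, the raised list had 10 lower and 10 higher, and the lowered list 12 higher and 4 lower. *Tgfbi* of the raised list was higher (1.05), and *Steap4* of the lowered list was lower (log2 fold change -1.18 ± 0.09, adjusted p = 4.26e-06). *Lif*, a cytokine of the interleukin-6 family (chr11:4257568-4272514), measured 16.5, 18.8 and 35.8 CPM with XAV939, 4.30, 5.52 and 7.28 with IWR-1 and 71.1, 55.9 and 93.8 with DMSO, with IWR-1 lowest and DMSO highest (log2 fold change -2.0 ± 0.15, adjusted p = 4.69e-06). *Lum*, the small proteoglycan lumican, was 2156, 1601 and 1693 CPM with XAV939 and 829, 705 and 705 with IWR-1 (log2 fold change -1.28 ± 0.12, adjusted p = 1.55e-05). The count of 42 was 21 without the replicate block and 23 without IWR-1 replicate 1, and the count of 23 was 15 without the replicate block and 14 without IWR-1 replicate 1.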

How the data were processed

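Primary articular chondrocytes from ICR mice were treated with DMSO, XAV939 or IWR-1 (3 libraries each). Per the submitters' processing notes, reads from a stranded poly(A) kit were handled with Trimmomatic 0.32, TopHat2 2.0.13 and HTSeq 0.6.1p1 on mm10. The strand setting and gene annotation of the counting are not given in the sources used here. The deposited values are whole read counts per gene, not normalized. Of 24134 gene identifiers, 24051 matched a name in RefSeq (GRCm38.p6).

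Counts were scaled by TMM and filtered with filterByExpr (minimum count 10), which left 13873 genes. The quasi-likelihood test of edgeR 4.0.16 (R 4.3.3) was fitted to all 9 libraries with treatment and replicate number as terms, with 4 residual degrees of freedom, and p-values were adjusted by the Benjamini-Hochberg method over all genes tested. Genes with an adjusted p under 0.05 are called. Fold changes use a prior count of 2. Same-numbered libraries of the 3 groups correlated at 0.143 to 0.553 after removal of group means, above 0.1 in every pair, so the block was kept. Unequal numbers ran from -0.489 to 0.318. DMSO replicate 2 correlated more with replicate 1 of XAV939 (0.318) and IWR-1 (0.316) than with their replicate 2 (0.143 and 0.244). The pairing was therefore less clear for DMSO replicate 2. Whether a number marks a shared preparation is not stated, and p-values measure the spread between these libraries. Counting intervals are exact and cover counting error only.

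Gene names follow a rule: the 12 largest separated changes each way, the 4 members of each list with the smallest p, a set of pathway genes named in any case, and the 5 largest changes to opposite sides of DMSO. Some genes that the rule names are not reported here. Further list members are named as examples chosen after their values were seen. The members and lists were chosen with earlier results of these data known, and 4 of the lists are from the study's supplementary material. Promoters are 250 bases before to 50 after the RefSeq start, for 10970 tested genes. Alternatives were other scalings and filters, DESeq2 1.42.0, a fit without the block, the 6 libraries alone and each library left out. The fitting was tested on simulated counts in which few genes changed and replicate effects were shared across groups by number. That run does not test the pairing, or a difference at as many genes as were called here.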

Additional observations from a re-analysis of the deposited data

Results flagged for a closer look

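Genes are given here because all libraries of one inhibitor stood above, and all libraries of the other below, every DMSO library. The 5 largest such differences among called genes of at least 1 CPM were *Slc36a2*, *Aldh3a1*, *Cck*, *Serpinb2* and *Mmp9*, each higher with XAV939 and lower with IWR-1 than DMSO. *Slc36a2*, a proton-coupled amino acid transporter, measured 3.02, 2.78 and 2.78 CPM with XAV939, 0.116, 0.128 and 0.348 with IWR-1 and 1.13, 1.54 and 1.16 with DMSO, a log2 fold change of -3.49 between the compounds. *Serpinb2*, the plasminogen activator inhibitor PAI-2, measured 3.29, 7.88 and 9.54 CPM with XAV939, 0.436, 0.642 and 1.16 with IWR-1 and 1.65, 1.83 and 2.58 with DMSO, a log2 fold change of -3.08. *Aldh3a1* differed by a log2 fold change of -3.35, *Cck* by -3.32 and *Mmp9* by -3.02, with the levels given above. The difference between the inhibitors is the contrast of the report and passed the test for each. The DMSO libraries served for level only, and the opposite directions against DMSO were not tested. No cause was tested.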

How the results depend on the processing

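Without the replicate block the calls numbered 2442 (1022 higher and 1420 lower with IWR-1, 41.9% higher, against 46.1% of 4258 with it), and DESeq2 without the block called 1270 higher. A test against a fold of 1.5 called 824 (299 and 525, 36.3% higher). With at least 10 counts in every library, which tests fewer genes, 212 genes were called higher past 2-fold, against 329. Leaving out 1 library gave 2291 to 4957 calls, 987 to 2359 higher and 1304 to 2598 lower, and past 2-fold 743 to 1000, 284 to 391 and 459 to 624, lowest without IWR-1 replicate 1 in each case. Of 159 called genes named by rule, 145 kept call and direction in every alternative counted, 12 lost the call without the block, and 0 reversed. This tally leaves out the test against a fold of 1.5 and any run whose filter removed the gene. List medians changed as follows, and the cause was not tested. With no filter on low counts they were -0.0126 for Wnt, -0.75 for aryl hydrocarbon receptor, -0.23 for xenobiotic, -0.41 for leukocyte and 0.049 for genes lowered in osteoarthritis. With at least 10 counts they were -0.0346 for hypertrophy, -0.0656 for IGF, -0.34 for FGF-ERK, 0.13 for YAP-TAZ, -0.11 for zinc, -0.27 for synovial and 0.19 for genes lowered in osteoarthritis. In the 6 libraries alone they were -0.0664 for IGF, 0.13 for YAP-TAZ and 0.26 for genes lowered in osteoarthritis. DESeq2 with the block gave -0.0107 for Wnt, -0.77 for aryl hydrocarbon receptor, -0.45 for leukocyte, -0.17 for genes raised and 0.10 for genes lowered in osteoarthritis, and without it -0.0165 for Wnt, -0.41 for xenobiotic, -0.65 for leukocyte, -0.17 for raised and 0.0489 for lowered genes. Upper-quartile scaling gave 1.11 for chondrocyte markers. Leaving out 1 library, the medians ran from 0.0501 to 0.15 for tankyrases and partners, -0.0286 to 0.0804 for Wnt, 0.43 to 0.83 for cartilage matrix, -0.73 to -0.56 for proteases, -0.53 to -0.46 for interferon, -0.57 to -0.40 for FGF-ERK, -1.08 to -0.76 for aryl hydrocarbon receptor, -0.44 to -0.31 for xenobiotic, -0.12 to -0.0355 for fatty acid, -0.0305 to 0.16 for ER folding, -0.26 to -0.18 for HIF, -0.10 to 0.0218 for respiratory chain, -0.32 to -0.23 for cell cycle, -0.17 to -0.0199 for Notch and Hedgehog, -0.0851 to 0.0062 for circadian, -0.26 to -0.0729 for channels, -1.05 to -0.79 for leukocyte, 1.06 to 1.19 for chondrocyte markers, 0.30 to 0.43 for the cartilage signature and 0.22 to 0.30 for genes lowered in osteoarthritis. Among these ranges the sign changed for Wnt and ER folding without XAV939 replicate 2, respiratory chain without IWR-1 replicate 2 and circadian without IWR-1 replicate 1.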

Other observations

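Fibroblast matrix genes were called in both directions, 9 of 28 higher and 10 lower with IWR-1 (median 0.02). *Col15a1*, a basement membrane collagen, measured 1.24, 2.81 and 1.82 CPM with XAV939, 4.71, 7.19 and 7.92 with IWR-1 and 1.86, 3.08 and 3.30 with DMSO, with no overlap between the compounds (log2 fold change 1.75 ± 0.17, adjusted p = 1.96e-05). *Lox*, a collagen cross-linking enzyme, was lower (log2 fold change -0.87 ± 0.11, adjusted p = 1.11e-04), as was the fibrillar chain *Col5a3* (log2 fold change -0.79 ± 0.10, adjusted p = 9.26e-05). The higher count was 3 without the replicate block and 5 without XAV939 replicate 3, and the lower count was 6 without the replicate block.

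YAP-TAZ targets had 9 of 24 higher and 4 lower (median 0.22), including the matricellular *Ccn1* (log2 fold change 0.74 ± 0.10, adjusted p = 1.55e-04) and *Ajuba* (log2 fold change 0.64 ± 0.09, adjusted p = 2.59e-04) and, in the other direction, the receptor kinase *Axl* (log2 fold change -0.97 ± 0.09, adjusted p = 1.91e-05). Contractile genes had 3 of 28 higher and 4 lower (median -0.02), beside 30.7% of all genes called in either direction. *Acta2*, smooth muscle actin, was the exception in size, with 21.2, 20.8 and 13.1 CPM with XAV939, 100.1, 49.9 and 59.7 with IWR-1 and 26.1, 24.2 and 12.9 with DMSO (3.79-fold, log2 fold change 1.92 ± 0.19, adjusted p = 2.15e-05). *Tagln*, which overlaps *Pcsk7*, was higher too (log2 fold change 0.84 ± 0.16, adjusted p = 0.00198).

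Notch and Hedgehog genes had 5 of 21 higher and 4 lower (median -0.16), beside 14.1% and 16.6% of all genes. *Notch3*, a receptor, measured 5.42, 7.32 and 6.76 CPM with XAV939, 1.54, 1.83 and 2.20 with IWR-1 and 18.4, 10.4 and 14.6 with DMSO, so the compounds did not overlap (3.42-fold, log2 fold change -1.77 ± 0.23, adjusted p = 1.63e-04). *Hey1*, a Notch target, measured 1.91, 2.51 and 1.67 CPM with XAV939, 6.02, 6.10 and 4.96 with IWR-1 and 2.35, 2.68 and 2.07 with DMSO and moved the opposite way (2.78-fold, log2 fold change 1.47 ± 0.14, adjusted p = 2.11e-05).

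Zinc genes had 8 of 15 lower and 1 higher (median -0.26), a count that was 4 without the replicate block, 5 without XAV939 replicate 1, 5 without XAV939 replicate 3, 3 without IWR-1 replicate 1 and 4 without IWR-1 replicate 2. *Slc39a8*, a zinc importer, measured 69.3, 68.4 and 84.3 CPM with XAV939, 21.5, 23.6 and 21.1 with IWR-1 and 121, 134 and 121 with DMSO, with all IWR-1 libraries lowest (3.34-fold, log2 fold change -1.74 ± 0.10, adjusted p = 1.26e-06). *Mt1*, a metallothionein with close copies, was lower (log2 fold change -0.72 ± 0.14, adjusted p = 0.00217). Channels and neural adhesion genes had 10 of 27 lower and 5 higher, and the lower count was 6 without the replicate block, 5 without XAV939 replicate 3 and 5 without IWR-1 replicate 3. *Cacna1g*, a low-voltage calcium channel, measured 23.2, 25.6 and 21.9 CPM with XAV939, 2.67, 3.15 and 4.84 with IWR-1 and 44.4, 41.1 and 51.2 with DMSO (log2 fold change -2.73 ± 0.17, adjusted p = 1.30e-06), and *Gjc3*, a connexin, measured 2.86, 2.70 and 1.85 CPM with XAV939, 13.3, 11.6 and 8.44 with IWR-1 and 0.457, 1.43 and 0.911 with DMSO (log2 fold change 2.14 ± 0.23, adjusted p = 4.01e-05). Circadian genes had 3 of 19 higher and 2 lower (median -0.02), 26.3% called beside 30.7% of all genes.

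Osteoblast markers summed to 2428 to 3126 CPM with XAV939 and 1925 to 3123 with IWR-1, synovial and tendon markers to 526 to 1501 and 422 to 1087, endothelial markers to 80.3 to 106 and 92.3 to 105, adipocyte markers to 28.8 to 34.7 and 17.7 to 21.7, and muscle markers to 3.04 to 3.58 and 3.08 to 3.72. Single genes held most of several sums, so a sum does not measure a cell type. *Col1a1* measured 2352, 2565 and 3063 CPM with XAV939 and 1883, 1859 and 3063 with IWR-1. *Eng*, also in the study's cartilage signature, measured 78.7, 104 and 90.5 against 91.0, 91.4 and 104. *Fabp4* measured 25.8, 25.0 and 30.8 against 11.5, 13.4 and 15.7, and *Prg4* 498, 316 and 1186 against 337, 292 and 894. Of 4 endothelial markers tested 1 was lower (*Tek*, -1.58), of 4 muscle markers 0 were called, of 2 adipocyte markers 1 was lower (*Fabp4*, -1.01), and of 6 osteoblast markers 1 was higher (*Sp7*, 0.85) and 1 lower (*Bglap2*, -0.70). Of 10 synovial and tendon markers 4 were lower, among them *Pdpn* (log2 fold change -0.99 ± 0.13, adjusted p = 1.52e-04), *Pdgfra* (-0.60) and *Scx* (-0.60, overlapping *Bop1*), and that count was 2 without the replicate block, 2 without XAV939 replicate 3 and 2 without IWR-1 replicate 2. Their part in the other results was not tested.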
